A study of Bos taurus with 12 samples.

Results

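The region described here is the stretch of bovine chromosome 1 from 22000001 to 23000000 (genome build ARS-UCD1.2), which holds NRIP1 and SAMSN1. Its members are all rows of the 2 deposited lists that start inside these bounds. They comprise 429 of 196275 single CpG cytosines (sites) and 4 of 1227 windows of 500 bases (tiles). Blood was taken from 12 dairy cows kept under the same conditions on one farm, and methylated cytosines were read by enzymatic conversion and sequencing. MSG, the Mastitis Susceptible Group, comprised 6 cows that were removed from the herd in the following year for complications of mastitis, an udder inflammation not yet recognised when blood was drawn. MRG, the Mastitis Resilient Group, comprised 6 cows of similar age that were still present after 1 year. Cows are numbered 1 to 6 within each group by the order of the sample records, and the numbers pair no animals.

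The labels name blood as both tissue and cell type and give no cell counts, breed or relationship between animals. A shift in the mixture of blood cells and a change of methylation within a cell type therefore cannot be told apart. No genome sequence of this build was used, so positions are given without their sequence.

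NRIP1 encodes a coregulator, also known as RIP140, that binds ligand-activated nuclear receptors and mostly represses their target genes. It is known for roles in ovulation, mammary gland development, energy metabolism and inflammatory gene expression in macrophages. SAMSN1 encodes an adaptor protein of blood cells with an SH3 domain and a SAM domain, which restrains B cell activation. DNA methylation at CpG dinucleotides is usually high between genes and in introns and low at active promoters and enhancers.

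The members were selected on the measured outcome: all had been listed by the authors for a difference between these same cows of at least 25 percentage points. The list was limited by significance too: the authors' deposited q-value, from a test not stated, was at most 0.00999953 over all listed sites. The differences between MSG and MRG below are thus a description of the listed rows and no evidence for a difference in this region. In the authors' deposited table the smallest difference in the region was -25.2 points, at 22875626, and the widest was -78.1 points, at 22430390. At the lower boundary the last site outside was at 21993415 with a difference of -52.7 points, and the first site inside was at 22005754 with -30.1 points. At the upper boundary the last site inside was at 22977916 with 36.0 points, and the first outside was at 23000495 with 37.0 points. Sites continued beyond both limits, so the boundaries were set by the round position and not by the data.

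Among 159 windows of 1 Mb with a listed site on chromosome 1, none held more sites than this one. The next held 413 and the median 92. Genome-wide, 7 of 2642 such windows held more. The 1 Mb before and the 1 Mb after held 184 sites each. Median spacing between successive sites was 363 bases, against 1148 and 894 bases in these flanks.

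Methylation was higher in MSG at 200 sites (46.6%, Wilson 95% interval 42.0% to 51.3%) and lower at 229. The interval treats sites as independent, although many are strands of the same CpG or close neighbours. It therefore does not measure the spread among cows and allows no comparison with the whole list. Over the whole list 52.7% were higher. Sites closer than 1 kb to each other formed 149 runs, of which 55 were single sites. Of the 94 longer runs, 31 were the 2 strands of a single CpG. Of the 63 runs with 2 or more CpGs, 43 (68.3%) had all sites in one direction. Over the whole list this share was 78.3%, and in the flanks 73.9% and 66.7%. These shares were not tested against each other. By class, 320 sites were distal intergenic, 90 intronic, 17 in promoters (within 3 kb of a start), 1 exonic and 1 in a 3' untranslated region.

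**Figure D1:**
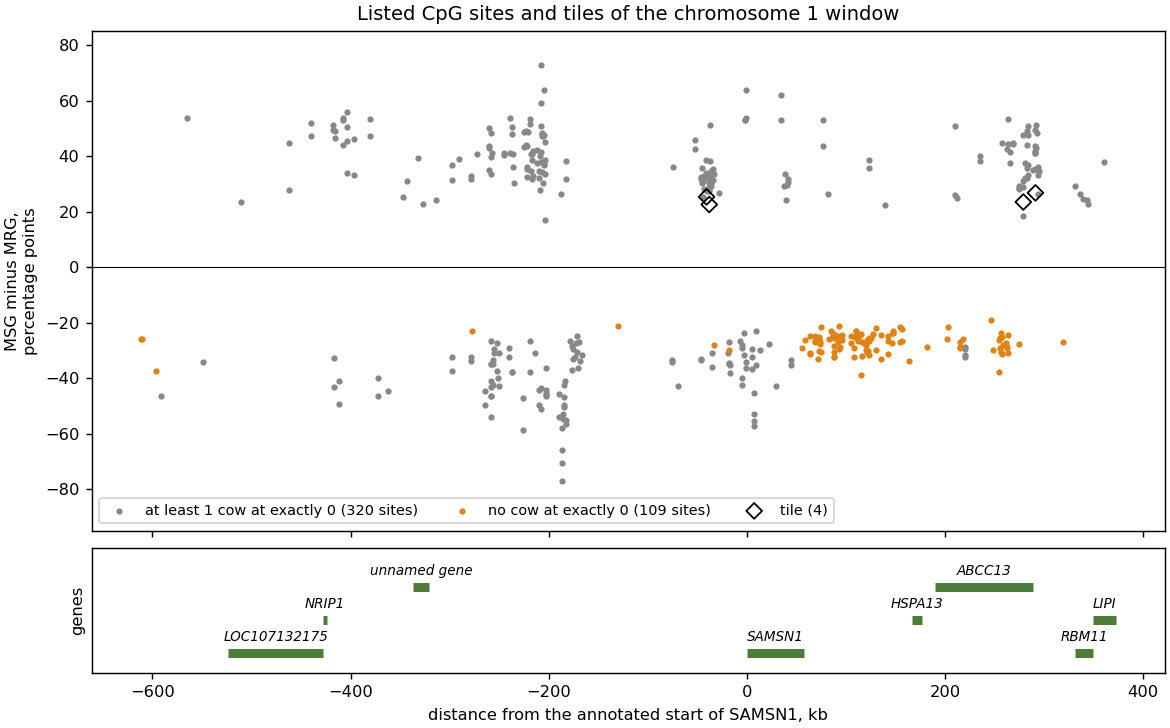
Difference in methylation (MSG minus MRG, percentage points) of the 429 listed sites and 4 tiles against distance from the annotated start of SAMSN1 in kb, with gene models below. Grey sites had at least 1 cow at exactly 0 and orange sites had none; all 109 orange sites lie below the zero line, most of them between SAMSN1 and ABCC13.

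Listed sites were of 2 kinds by what single cows read. One or more cows stood at exactly 0% methylation at 320 sites (74.6%, beside 78.3% of the whole list). All 200 sites higher in MSG were of this kind, and so were 120 of the lower sites. At the other 109 sites, which represent 84 CpGs, no cow was at 0, and all 109 were lower in MSG. Over the whole list 57.3% of sites with no cow at 0 were higher in MSG. In the flanks 12 of 21 and 27 of 38 such sites were higher. A uniform direction was uncommon but not limited to this region: of 171 windows of 1 Mb with 50 or more such sites, 10 had all of them in one direction.

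Cow MSG 5 stood apart from its group in this region. Over the 200 higher sites it averaged 16.9%, while the other MSG cows averaged 73.7% (MSG 1), 75.4% (MSG 2), 79.0% (MSG 3), 72.5% (MSG 4) and 76.8% (MSG 6). The MRG cows averaged 13.0%, 27.9%, 32.8%, 35.2%, 51.4% and 2.19% in order of their numbers. MSG 5 was thus within the range of MRG, and the remaining MSG cows were all above it. MSG averaged 65.7% ± 24.1 and MRG 27.1% ± 17.4 (mean ± SD over 6 cows each), and the difference was 48.4 points without MSG 5.

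Over the 229 lower sites MSG 5 averaged 89.6%, again within the MRG range of 76.3% to 93.0%. The other MSG cows averaged 30.9% (MSG 1), 63.1% (MSG 2), 31.3% (MSG 3), 67.2% (MSG 4) and 35.5% (MSG 6). All of these were below every MRG cow, and the lowest were MSG 1, MSG 3 and MSG 6. Group means were 52.9% ± 24.1 in MSG and 85.9% ± 6.17 in MRG, with a difference of -40.3 points without MSG 5.

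MSG 5 read nearer to the mean of MRG than to the mean of the other MSG cows at 400 of its 419 sites with a value (95.5%). In the flanks this share was 64.2% and 63.2%, and over the whole list 28.3%, so the cow did not stand apart genome-wide. Other cows were mixed here as well: MSG 2 read nearer to MRG at 43.1% of sites, MSG 4 at 42.1%, and MRG 5 nearer to MSG at 39.9%. MSG 3 did so at only 0.701% of sites. A cow reading with the other group at 90% of sites or more was found in 80 of 692 windows of 1 Mb with at least 100 sites, and 29 of them exceeded this one.

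**Figure D2:**
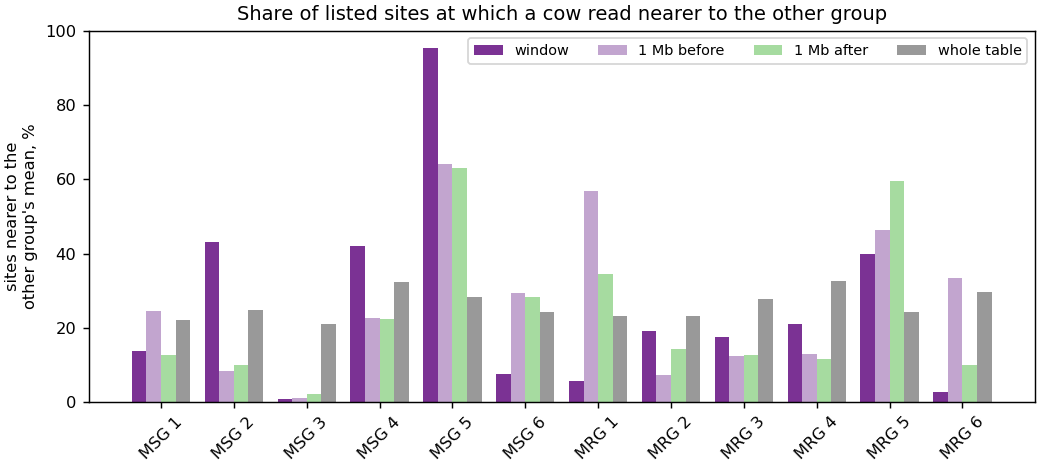
Share of listed sites (percent) at which each cow read nearer to the mean of the other group than to the mean of the rest of its own group, for the region, the 1 Mb before, the 1 Mb after and the whole list. MSG 5 reaches 95.5% in the region against 28.3% over the whole list.

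Some pairs of cows resembled each other closely across these sites. The correlation of site values was 0.93 between MRG 1 and MRG 6 (423 sites), 0.90 between MRG 3 and MRG 4 (400 sites) and 0.87 between MSG 2 and MSG 4 (414 sites). MSG 5 correlated at 0.89 with MRG 2 and 0.88 with MRG 6, but at -0.50 to 0.09 with the other MSG cows. Those other cows were not all alike. MSG 1 correlated at 0.01 with MSG 2 and 0.07 with MSG 4, and the remaining pairs among them at 0.36 to 0.87. MRG 5 correlated at 0.67 with MSG 2 and 0.65 with MSG 4. Over the whole list, correlations within a group ranged from 0.35 to 0.55 and between groups from -0.05 to 0.31. The sites are neighbours and were all chosen for the group difference, so these coefficients describe the list only.

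Most values of single cows lay in 3 ranges. Of all cow values in the region 22.6% were exactly 0, 23.98% lay from 30% to 70% and 36.4% were at 90% or above. The remaining 17.0% lay between these ranges. The corresponding shares over the whole list were 21.7%, 32.0%, 27.3% and 19.1%. Cows differed widely in the range from 30% to 70%, which held 42.3%, 45.1% and 44.3% of the values of MSG 1, MSG 3 and MSG 6 but 3.10%, 2.58% and 2.36% of those of MSG 2, MRG 2 and MRG 6. MRG 6 was at exactly 0 at 189 of the 197 higher sites where it had a value. The conversion method reads a cytosine replaced by thymine in an animal's genome as unmethylated. No genotypes were used here, and the part of such variants in these values was not tested.

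**Figure D3:**
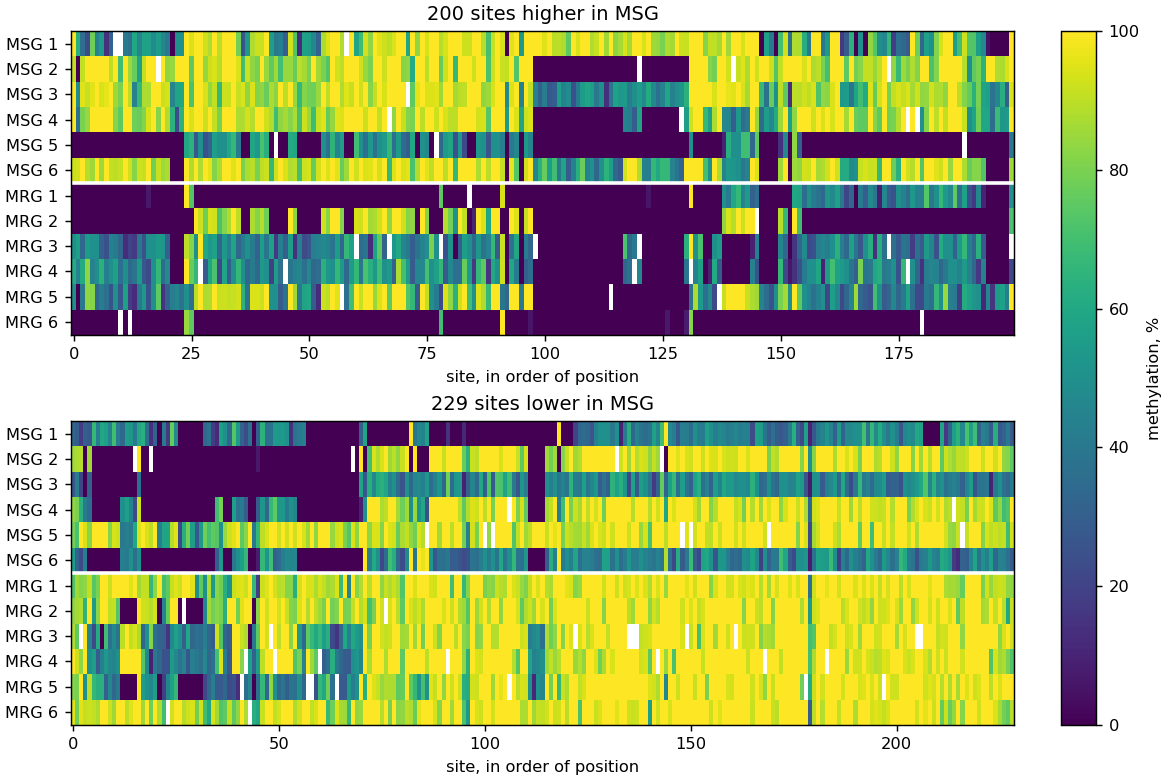
Methylation (colour, percent) of each cow (rows) at the 200 sites higher in MSG (top) and the 229 sites lower in MSG (bottom), in order of position, with missing values in white. Long blocks of neighbouring sites share one level within a cow, and the row of MSG 5 resembles MRG rows in both panels.

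The same sets of cows recurred at 0 from site to site. The 320 sites with a cow at 0 showed 43 different sets, and the 8 commonest covered 239 of them (74.7%). The commonest was MRG 1 with MRG 6, at 50 sites in 19 runs from 22319768 to 22827984, all higher in MSG. At these sites MSG 5, MRG 3 and MRG 4 averaged 48.5%, 45.5% and 51.7%, and the remaining 7 cows averaged 89.9% to 93.4%. The intermediate cows thus included 1 from MSG, and the high cows included MRG 2 and MRG 5.

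MSG 1 alone was at 0 at 42 sites from 22441475 to 22837413, all lower in MSG. There MSG 3 and MSG 6 averaged 49.0% and 43.0%, and the other 9 cows 91.8% to 95.2%. MSG 5, MRG 2 and MRG 6 were together at 0 at 37 sites, and joined by MRG 1 at 35 more, all higher in MSG. In the second of these sets MRG 3, MRG 4 and MRG 5 averaged 43.8%, 47.0% and 45.3%, MSG 1 averaged 55.9%, and the other MSG cows 89.99% to 91.1%.

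Another set was compact. At 23 sites within 11.6 kb (22571509 to 22583078), upstream of SAMSN1, all 6 MRG cows and MSG 2, MSG 4 and MSG 5 were at 0. MSG 1 averaged 91.2%, MSG 3 43.3% and MSG 6 52.2%. The difference between groups there rested on these 3 MSG cows. The reverse was seen at 20 sites from 22201136 to 22428066, where MSG 2, MSG 3, MSG 4 and MSG 6 were at 0 and MSG 1 averaged 44.5%. MSG 5, MRG 1, MRG 2 and MRG 6 averaged 82.1% to 88.8% at those sites, and MRG 3, MRG 4 and MRG 5 averaged 40.01% to 44.9%.

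The opposite strand could be compared at 142 of 287 CpGs; the other 145 had a single listed cytosine. Both cytosines pointed the same way in all 142, as in all 43073 such pairs of the whole list. In 98.5% of cow values at 0 on the plus strand (405 of 411) the minus strand was also at 0, against 98.3% over the whole list. The median difference between strands was 4.55 points.

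**Figure D4:**
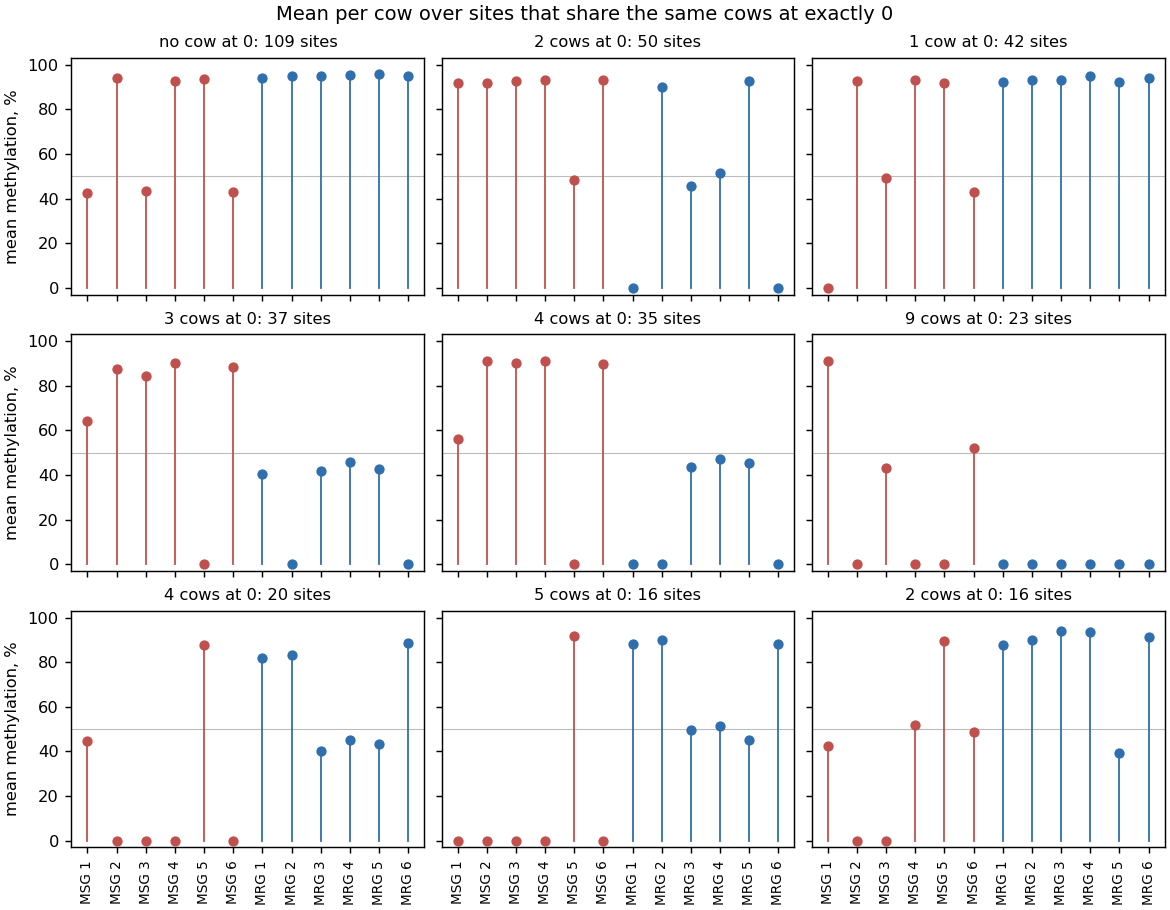
Mean methylation (percent) of each cow over the 109 sites with no cow at exactly 0 and over the 8 commonest sets of sites that share the same cows at 0; red marks MSG and blue MRG, and the grey line marks 50%. Cows not at 0 stand near 50% or near 90% in most panels.

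The 109 sites with no cow at 0 shared a main pattern in their means per cow, though single sites departed from it. MSG 1, MSG 3 and MSG 6 averaged 42.4%, 43.6% and 42.9%, while MSG 2, MSG 4 and MSG 5 averaged 93.9%, 92.9% and 93.5%. The MRG cows averaged 94.2% to 96.0%. The group means were 68.2% ± 27.7 and 95.1% ± 0.602 (SD, n = 6 each), so nearly all spread lay within MSG. At 79 of the 109 sites MSG 1, MSG 3 and MSG 6 were each at 70% or below and all other 9 cows at 80% or above, a pattern singled out after its values were seen. Of the 109 sites, 50 were assigned to HSPA13, 37 to SAMSN1 and 18 to ABCC13.

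NRIP1 had 19 sites, none inside its gene model of 3.47 kb (22189815 to 22193285, plus strand). They lay 9.77 to 31.3 kb from its start, 2 upstream (in an intron of the neighbouring gene) and 17 beyond its end, and all 19 had a cow at 0. At the 15 higher sites MSG 2, MSG 3, MSG 4 and MSG 6 averaged 90.7%, 88.5%, 91.2% and 91.5%, and MSG 1 averaged 48.0%. MSG 5, MRG 2 and MRG 6 averaged 0% and MRG 1 averaged 0.444%, while MRG 3, MRG 4 and MRG 5 averaged 36.2%, 45.8% and 41.8%. In these means over 15 sites only MSG 5 lay within the MRG range, and the group means were 68.3% ± 37.6 and 20.7% ± 22.7. At some single sites MSG 1 lay within it as well. It read 14.3% at 22199584 (MRG up to 42.9%) and 31.25% at 22201276 (MRG up to 50%). At 22213552 it read 60%, above MRG (up to 38.5%). At its 4 lower sites (22201136 to 22205411) the order was reversed: MSG 2, MSG 3, MSG 4 and MSG 6 were at 0 and MSG 5 averaged 100%.

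The gene beside NRIP1, LOC107132175, annotated as similar to the cell death regulator Aven, had 9 sites, 4 higher and 5 lower in MSG. Between NRIP1 and SAMSN1 the annotation has an unnamed gene, ENSBTAG00000054742 (22280562 to 22296545), to which 149 sites were assigned. Only 2 lay inside it, and 147 were distal intergenic, up to 167 kb from its start. Its 76 higher sites averaged 78.6% ± 22.1 in MSG and 38.5% ± 28.2 in MRG. Single cows ran from 34.3% (MSG 5) to 90.5% in MSG and from 4.33% (MRG 6) to 73.3% (MRG 5) in MRG. Its 73 lower sites averaged 29.9% ± 26.4 and 70.7% ± 16.8, with MSG 5 at 82.0% and the other MSG cows at 8.50% to 28.3%.

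Higher and lower sites alternated closely in this intergenic stretch. The run of 13 sites from 22409400 to 22411531 had 11 higher sites, and the next, also of 13 sites (22412841 to 22414638), had 8 higher and 5 lower. The run of 9 sites from 22433307 to 22435285 had 2 higher and 7 lower. It averaged 76.6% in MSG 5, 18.8% to 21.7% in the other MSG cows and 42.9% to 89.4% in MRG. The run of 7 sites from 22429527 to 22431854 averaged 81.3% in MSG 5, 0% to 13.0% in the other MSG cows and 52.6% to 78.8% in MRG. In these run means MSG 5 lay within the MRG range in the run from 22433307 and above it in that from 22429527. The other MSG cows lay below the MRG range in both. Both runs hold sites of both directions, so their means do not describe single sites. The run of 12 sites from 22358772 to 22359723 had 4 higher sites and averaged 35.7% ± 10.8 in MSG and 49.4% ± 8.71 in MRG.

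SAMSN1 (22617489 to 22675629, 58.1 kb, plus strand) had 127 sites, 52 higher and 75 lower in MSG. Of these, 67 lay upstream, 23 within the outer bounds of its gene models and 37 beyond its end. The 3 parts differed in direction. Upstream, 41 of 67 sites were higher, inside 8 of 23, and beyond the end 3 of 37.

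The 41 higher upstream sites were carried by 3 cows most of all. MSG 1 averaged 92.1%, MSG 6 61.9% and MSG 3 54.9%, while MSG 2, MSG 4 and MSG 5 averaged 19.5%, 22.3% and 3.66%. The MRG cows averaged 2.49% to 13.0%, below all MSG cows but MSG 5, and the means were 42.4% ± 33.0 and 7.31% ± 4.78. The longest run of the region by number of sites lay here, with 15 sites in 2184 bases (22578947 to 22581130), all higher in MSG. In it MSG 1 averaged 90.4%, MSG 6 63.6%, MSG 3 46.9% and MSG 4 11.7%, whereas MSG 2 and MSG 5 were at 0% and MRG cows at 0% to 10.5%. The run of 6 sites that followed (22582647 to 22584600) had 3 sites of each direction and averaged 53.3% ± 9.18 in MSG and 49.9% ± 3.82 in MRG.

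Close to the start of SAMSN1, 6 sites formed 3 CpGs at -1484 to -1026 bases from that start. Both cytosines of the outermost CpG (22616005 and 22616006) read 100% in MSG 1, MSG 2, MSG 3, MSG 4 and MSG 6 and 0% in MSG 5, MRG 1, MRG 2 and MRG 6. The CpG nearest the start (22616462 and 22616463) read 50% to 100% in all MSG cows but MSG 5, which was at 0. There MRG 5 read 36.4% and 47.4%, and the other MRG cows 0% to 9.09%. The CpG between them was lower in MSG: at 22616300 MSG 1 was at 0% and MSG 3 at 40%, and MRG cows were at 88.9% to 100%. Not every MSG cow was low at this CpG: MSG 2, and MSG 4 where it had a value, read as high as the MRG cows. A further promoter site, at 22639748, belongs to a second transcript that starts inside the gene, and was lower in MSG (63.6% ± 42.6 against 91.5% ± 13.0).

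Inside SAMSN1 the 15 lower sites averaged 48.3% ± 29.2 in MSG and 85.9% ± 8.30 in MRG. MSG 1 was lowest with 8%, then MSG 3 with 32.8% and MSG 6 with 37.0%, and MSG 5 averaged 93.4%. The exonic site, in exon 5 of 8 at 22655413, read 100% in MSG 1, MSG 2 and MSG 3, 46.2%, 10% and 44.4% in MSG 4, MSG 5 and MSG 6, and 0% to 91.7% in MRG. Its groups overlapped over nearly the whole range. Beyond the end of the gene 34 lower sites averaged 44.3%, 45.5% and 44.3% in MSG 1, MSG 3 and MSG 6 and 92.7% to 94.98% in the other MSG cows, with MRG at 96.1% ± 0.541. The run of 8 sites from 22690396 to 22692723 was made only of such sites, with MSG 1, MSG 3 and MSG 6 at 43.8%, 40.1% and 44.3%. Another run of 8 sites (22739183 to 22741047), towards HSPA13, had 2 higher and 6 lower sites and averaged 56.0% ± 22.5 in MSG and 67.4% ± 2.29 in MRG.

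HSPA13 encodes a member of the Hsp70 chaperone family found with the endoplasmic reticulum. It had 60 sites, 54 of them lower in MSG, and none lay inside its gene model (22783876 to 22794051). Of its sites, 46 were distal intergenic and 13 fell in introns of the neighbouring gene. The 54 lower sites averaged 40.4%, 45.5% and 44.1% in MSG 1, MSG 3 and MSG 6, and 94.0% to 95.02% in MSG 2, MSG 4 and MSG 5. The MRG cows stood at 95.2% to 96.5%, a group mean of 96.0% ± 0.530 beside 68.9% ± 28.1 in MSG. The single promoter site, 2.79 kb upstream at 22781090, read 31.3% to 92.3% in MSG and 92.9% to 100% in MRG.

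The gene called LOC518080 in the deposited table, described there as multidrug resistance-associated protein 1, has the symbol ABCC13 in the RefSeq table of ARS-UCD2.0 and belongs to the ATP-binding cassette transporters. It spans 22807642 to 22906567 on the minus strand and had 59 sites, 45 of them inside it. At its 41 higher sites MSG 2, MSG 3, MSG 4 and MSG 6 averaged 82.7% to 88.1% and MSG 1 61.7%. MSG 5, MRG 2 and MRG 6 averaged 2.83%, 4.13% and 0%, and MRG 1, MRG 3, MRG 4 and MRG 5 averaged 41.0% to 45.2%. Its 18 lower sites had no cow at 0. They averaged 44.8%, 39.0% and 41.2% in MSG 1, MSG 3 and MSG 6 against 88.7% or more in every other cow. An intronic run of 8 sites (22878635 to 22881447) with 3 higher and 5 lower sites averaged 68.5% ± 18.3 in MSG and 68.4% ± 8.29 in MRG, so opposite sites cancelled in its mean.

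All 9 promoter sites of ABCC13 (22906145 to 22909469) were higher in MSG. MSG 5 and MRG 2 averaged 0% and so did MRG 6. MSG 2, MSG 3, MSG 4 and MSG 6 averaged 89.99% to 94.8%, MSG 1 71.3%, and the 4 other MRG cows 40.6% to 53.8%. The closest lay 422 bases inside the gene from its start, where the range was 33.3% to 100% in MSG cows other than MSG 5.

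LIPI, a lipase gene, had 5 sites, all higher in MSG and all with a cow at 0; they lay in introns and the 3' untranslated region of RBM11, the neighbouring gene on the opposite strand. MSG 2 averaged 93.9%, MSG 4 54.0%, MSG 3 46.8% and MRG 5 43.1%, and every other cow averaged 1% or less. RBM11, which encodes an RNA-binding splicing regulator, had 1 site, at 22977916, higher in MSG (86.7% ± 23.6 against 48.7% ± 39.4 with 5 MRG cows). That site lay 10.7 kb upstream of the start of RBM11, outside this gene and within the bounds of LIPI.

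All 4 tiles were higher in MSG, the groups overlapped in each (they did not in 6.03% of all tiles, or as higher in 3.67%), and every listed site inside them (16 in all) was too. A tile pools all reads in its 500 bases, listed or not, and no cow was at 0 in any of them. The first pair lay upstream of SAMSN1. The tile at 22576501 to 22577000, 40.5 kb from its start, read 94.2%, 29.9%, 66.1%, 17.1%, 36.3% and 45.3% in MSG 1 to MSG 6, and in MRG it ranged from 10.4% to 31.6% with a median of 23.3%. MSG 2 and MSG 4 lay within the MRG range, and the means were 48.1% ± 27.9 and 22.8% ± 7.42. The tile at 22579251 to 22579750, 37.7 kb from the start, read 88.5%, 16.9%, 57.3%, 36.6%, 30.7% and 69.4% in MSG and 20% to 35.4% in MRG (median 27.5%). MSG 1, MSG 3 and MSG 6 were highest in both.

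The second pair lay at ABCC13. The intronic tile at 22896251 to 22896750 ranged from 36.4% (MSG 5) to 94.0% in MSG, with a median of 84.7%, and from 35.0% to 70.3% in MRG, with a median of 57.5%. The promoter tile at 22908501 to 22909000, 1.93 kb upstream, ranged from 37.1% (MSG 5) to 95.1% in MSG (median 91.7%) and from 32.1% to 75.5% in MRG (median 61.6%). In both tiles MSG 5, a cow singled out after its values were seen, lay within the MRG range. Group means were 77.5% ± 21.5 and 54.0% ± 13.8 for the intronic tile and 82.4% ± 22.4 and 55.7% ± 18.2 for the promoter tile.

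**Figure D5:**
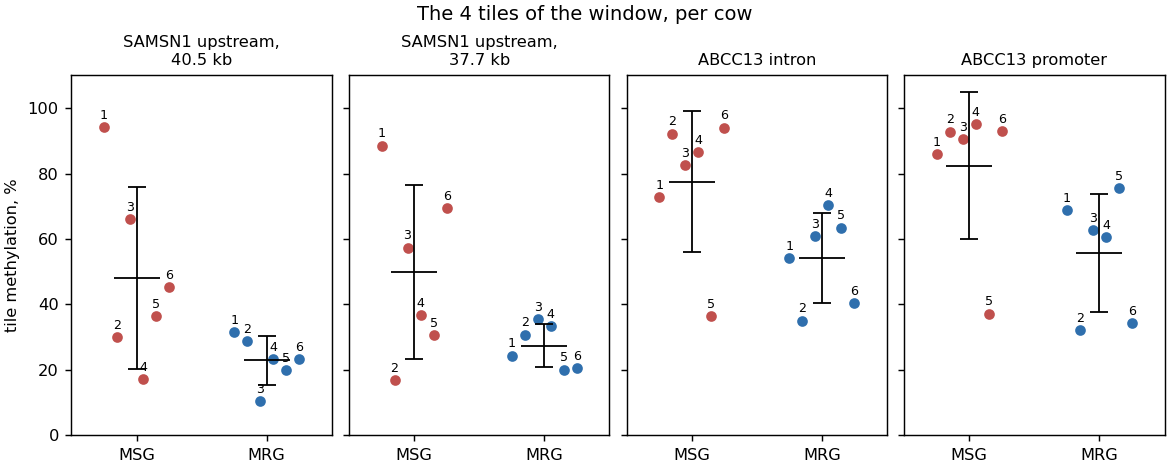
Methylation (percent) of the 4 tiles in each cow, with the cow's number beside its point and the group mean and SD (n = 6) in black. MSG 1, 3 and 6 are the highest cows upstream of SAMSN1, and MSG 5 lies among the MRG cows in the ABCC13 tiles.

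With limma fitted on all 1227 tiles, 1 of the 4 passed at an adjusted p under 0.05, the ABCC13 promoter tile (adjusted p = 0.0443). The others had adjusted p of 0.05004, 0.0636 and 0.0512 in limma, the first of these just above the threshold. Over the whole list 73.3% of tiles passed in either direction and 41.6% passed as higher. The call of the promoter tile was kept without MSG 5 or MRG 5 and lost without any one of the other 10 cows. No tile of the region passed without MSG 1, 3 or 6 or MRG 1, 2, 3 or 6. A different single tile passed without MSG 2 (22579251), MSG 4 (22576501) or MRG 4 (22896251), and all 4 passed without MSG 5, where 65.0% of all tiles did. None of the 4 passed the exact permutation test (adjusted p of 0.0720 to 0.109), which 17.4% of all tiles passed. None of the 429 sites passed limma or the exact permutation test, as none of all listed sites did (0%), and 229 had an unadjusted limma p under 0.05 (51.9% over the whole list). Fitted over the sites with no cow at 0 alone, 62 of the 109 passed limma, beside 73.1% of all such sites.

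The groups did not overlap at 6 sites (1.40%), 2 higher and 4 lower in MSG, against 2.36% of all listed sites (1.39% higher and 0.971% lower). Those with a missing cow are named although their values were seen first. At both higher ones MSG 5 had no value. These were 22409985, between NRIP1 and SAMSN1, with 92.3% to 100% in MSG and 0% to 57.1% in MRG, and 22910487, near ABCC13, with 81.3% to 92.3% and 0% to 66.7%. Of the 4 lower ones, that at 22391999 read 0% to 75.0% in MSG and 81.8% to 100% in MRG. Those at 22725396, 22781090 and 22873983 had MSG 3 and MSG 6 at 47.1% or below and every MRG cow at 92.9% or above. MSG 5 was singled out after its values were seen. It read nearer to MRG at 95.5% of its sites here and at 28.3% over the whole list. The shares with this cow left out are therefore not alike, and no excess is read from them. Without MSG 5 the groups did not overlap at 75 sites (17.5%), 48 higher and 27 lower, beside 4.27% of all listed sites without this cow. Without MSG 2 there were 12 (2.80%, beside 3.69% of all listed sites) and without MSG 4 there were 10 (2.33%, beside 4.26%), both below the share of the list.

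Genes related to NRIP1 and SAMSN1 elsewhere in the genome gave no common direction. Of 40 nuclear receptor and coregulator genes, 24 had a listed site, 15 with more higher and 8 with more lower sites. Their 408 sites were 55.1% higher in MSG with a median absolute difference of 33.6 points, beside 52.7% and 34.3 points over all sites. The corepressor gene CTBP2, whose product binds NRIP1, had 41 of 54 sites lower, the orphan receptor gene ESRRB 45 of 46 lower, and HDAC9, a histone deacetylase gene, 25 of 26 higher. PPARGC1A (30 of 36), NR3C2 (29 of 35) and RXRG (18 of 18) were also mostly higher. These genes are examples picked by no set rule. Of 36 genes of B and T cell receptor signalling, 23 had a site, 11 with more higher and 10 with more lower sites, and 46.6% of their 395 sites were higher. SASH1, which encodes a protein related to SAMSN1, held 178 of these, 65 higher and 113 lower. No site of either list passed limma (0% of all sites). The second list had 1 tile, which passed as lower, where 73.3% of all tiles passed in either direction. The first list had no tile.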

How the data were processed

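Methylation of blood DNA was measured in 12 cows, 6 per group. The submitters' processing notes name fastp 0.23.1, Bismark, DRAGEN and ChIPseeker 1.32.1 and the build ARS-UCD1.2, with no role or order; the differential test behind the lists is not stated there. Per the file headers, the authors deposited, in percent, the methylation of each cow at CpG sites and over tiles of 500 bases. The deposited difference in points (which ran one way with the difference of means computed here at every row of this region) and the deposited p-value and q-value are the authors' own; other values were computed from the percent columns. A further 36 columns of coverage and read counts carried numbers that name no cow and were not used, so depth is unknown, no interval for it is given, and precision rests on the spread among cows.

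Every listed row has values for at least 5 cows per group. In this region 358 of 429 sites have all 12, and 77 cow values are missing. Limma 3.58.1 in R 4.3.3 was fitted on each whole table, two-sided, without covariates, with Benjamini-Hochberg adjustment over its rows and a threshold of 0.05. The exact permutation test used all regroupings of the cows with a value at a row. With all 12 cows these were 924 (smallest p 0.00216), and with a missing cow there were fewer. The limma code was first tested on simulated normal values, which are not clustered as the cow values are. Each cow is 1 sample and the animals are separate per the labels.

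Members, gene lists and rules were chosen with earlier results of these data known. Genes named are those with 10 or more sites or a tile, NRIP1 and SAMSN1; runs are the 8 with most sites (ties by position) and the 2 longest of the rest; all promoter sites and tiles are described, and single sites with all 12 cows whose groups do not overlap. Other genes of the region are given for completeness. Sites were assigned to genes by the deposited annotation; positions follow ARS-UCD1.2, and the RefSeq table of ARS-UCD2.0 gave names only.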

Additional observations from a re-analysis of the deposited data

Results flagged for a closer look

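A single cow stood far from the other 5 of its group in the following values. The measure was the ratio of its gap from the nearest cow to the range of the group. Its nominal rate by chance is about 1 of 20 groups. That rate need not hold here, because cow values cluster at a few levels and the rows were listed for a group difference. MSG 5 was the cow in 9 of the 11 cases. It was lowest over the 200 higher sites of the region (16.9%, next 72.5%, ratio 0.895), over the higher sites of ENSBTAG00000054742 (34.3%, next 80.1%, ratio 0.815) and over those of ABCC13 (2.83%, next 61.7%, ratio 0.690). It was highest over the lower sites of ENSBTAG00000054742 (82.0%, next 28.3%, ratio 0.730). In the ABCC13 tiles it was lowest in the intron (36.4%, next 72.9%, ratio 0.633) and in the promoter (37.1%, next 86.0%, ratio 0.844). Among runs it was lowest in that from 22409400 (45.2%, next 79.0%, ratio 0.719) and highest in those from 22433307 (76.6%, next 21.7%, ratio 0.951) and 22429527 (81.3%, next 13.0%, ratio 0.840). In the run from 22582647, MSG 4 was highest in MSG (71.1%, next 55.2%, ratio 0.671) and MRG 3 highest in MRG (57.5%, next 50%, ratio 0.729). The values of one cow at neighbouring sites are not independent, so these cases are not separate observations.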

How the results depend on the processing

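The share of higher sites, 46.6%, was 0% among sites with no cow at 0 and 60.1% among sites with a difference of 40 points or more. It ran from 43.6% to 47.5% with all 12 cows present, with CpG strands averaged, with 1 vote per run, or with bounds moved by 250 kb. Leaving out a cow left every site on its side (46.6%); rows listed for 25 points or more leave little room for a change of sign, so this says nothing of stability. Averaged over sites, the difference was 38.8 points at higher and -33.4 points at lower sites; leaving out a cow gave 33.8 to 48.5 and -40.6 to -28.9. Among sites with no cow at 0 it could not be computed for higher sites, since none exist, and was -27.2 for lower ones. Sites without overlap numbered 6, and 3 with no cow at 0, 2 with all 12 cows, 2 with a gap of 10 points or more, and 6 to 75 with a cow left out. The count of sites passing limma was 0 under every setting run but that limited to sites with no cow at 0, where it was 62; leaving out a cow gave 0 to 0. The count of tiles passing limma, 1 of 4 (73.3% of all tiles), was 0 by the exact permutation test (17.4%), 0 at a threshold of 0.01 (0%), 3 in a fit of tiles with all 12 cows (78.5%) and 4 in a fit of tiles with no cow at 0 (93.3%). With a cow left out it was 0 to 4, while 32.4% to 65.0% of all tiles passed. Apart from the fewer rows or cows fitted, the cause was not tested. No paired analysis was possible because the labels number no cows across groups.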
